A study of Mus musculus with 6 samples.

Results

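miR-210 is the microRNA (miRNA) most closely tied to low oxygen, and both arms of its precursor, mmu-miR-210-3p and mmu-miR-210-5p, were counted in small RNA libraries of ulcerated mouse skin. They were found by name and make up 2 of the 649 entries of the count table. Each is an entry of its own, merged with no other miRNA. The skin came from C57 mice, an inbred laboratory strain, and the ulcer was either normal or diabetic, with day 14 on every label. The labels give no agent, genotype, age, sex or number of animals, and do not say how diabetes was brought about. Of the 3 deposited columns per group, those numbered 3 were not independent of the others, which left 2 libraries a group. For miR-210-3p, weighting the counts of the normal libraries 1 and 2 by 0.5 and 0.506 gave 442.8, where normal ulcer 3 held 443. The count of 31 for miR-210-5p in diabetic ulcer 3 was the same as in diabetic ulcer 2. The labels do not tie libraries to separate animals, and the spread behind each p-value may therefore be technical.

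A miRNA precursor is a hairpin that is cut into a short duplex. One arm is usually loaded into the silencing complex, where bases 2 to 8, the seed, pair with target messenger RNAs. Transcription of miR-210 is switched on by hypoxia-inducible factor when oxygen is low, and its known targets include the iron-sulfur cluster scaffold Iscu and the ephrin ligand Efna3. In skin it has been reported to rise in ischaemic mouse wounds and to restrain keratinocyte proliferation.

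The sequences show which arm carries which seed and where both lie in the precursor. Capitals mark the seed in the mature miRNAs and the 2 mature arms in the hairpin. All are from RefSeq on GRCm38.p6, on the minus strand of chromosome 7, and both mature sequences were identical to the deposited ones.
mmu-miR-210-3p: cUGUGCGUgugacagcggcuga
mmu-miR-210-5p: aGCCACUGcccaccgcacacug
Mir210 hairpin: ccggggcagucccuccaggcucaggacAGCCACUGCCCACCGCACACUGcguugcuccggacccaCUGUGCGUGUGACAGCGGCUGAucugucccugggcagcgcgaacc

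The hairpin spans chr7:141221384-141221493, the 3p arm chr7:141221407-141221428 and the 5p arm chr7:141221445-141221466. In GENCODE release M21 no other gene overlaps it. It lies 2725 bases from Rassf7 on 1 side and 7290 bases from Phrf1 on the other, and the nearest other miRNA gene, Mir7063, is 399208 bases away. Both arms are 22 bases long. They are rich in G and C, at 63.6% for the 3p arm and 68.2% for the 5p arm, against a median of 47.8% over all 649 entries. In the minimum free energy fold of the hairpin (-48.0 kcal/mol), 16 base pairs joined the 2 arms. Each seed was held by 1 of the 649 entries, the arm itself, and by 1 of 1679 mature mouse miRNAs named in the RefSeq table.

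miR-210-3p was the abundant arm and ranked number 192 of 649 entries by mean level. It had 658 and 225 counts in normal ulcer 1 and 2, and 307 and 335 counts in diabetic ulcer 1 and 2. Scaled by TMM, which sets the libraries to a common typical miRNA, the levels in counts-per-million units (CPM) were 55.3 and 26.8 for the normal libraries and 27.7 and 30.7 for the diabetic ones. Normal ulcer 1 stood above the other 3 libraries, and both diabetic libraries lay between the 2 normal ones. Counting error does not cover the gap: the exact 95% Poisson interval was 51.1 to 59.7 CPM in normal ulcer 1 and 23.5 to 30.6 CPM in normal ulcer 2. The intervals of diabetic ulcer 1 (24.7 to 31.0 CPM) and diabetic ulcer 2 (27.5 to 34.2 CPM) overlapped each other and that of normal ulcer 2. In falling order the libraries were thus normal ulcer 1, diabetic ulcer 2, diabetic ulcer 1 and normal ulcer 2, and the last 3 could not be told apart by counting. Such intervals leave out all but counting error, because copies made in amplification are not separate molecules.

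The same order of the extremes held without TMM scaling. Over library totals, miR-210-3p stood at 73.5, 16.8 and 39.3 CPM in the normal columns 1, 2 and 3, and at 33.0, 31.1 and 30.3 CPM in the diabetic columns 1, 2 and 3. The authors' TPM values, which hold no length term, were 30.9, 10.7 and 20.8 in normal ulcer 1, 2 and 3 and 14.5, 14.97 and 23.2 in diabetic ulcer 1, 2 and 3. On both scales normal ulcer 1 was highest and normal ulcer 2 lowest, with every diabetic value in between.

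miR-210-5p, the minor arm, ranked number 375 and rested on few reads. It had 29 and 10 counts in normal ulcer 1 and 2, and 20 and 31 counts in diabetic ulcer 1 and 2. The columns numbered 3 held 20 counts in normal ulcer and 31 in diabetic ulcer. TMM-scaled levels were 2.44 and 1.19 CPM for the normal libraries and 1.81 and 2.85 CPM for the diabetic ones. Diabetic ulcer 2 was highest and normal ulcer 2 lowest, and the groups overlapped. The widest interval, in relation to its value, was that of normal ulcer 2 (0.572 to 2.19 CPM), which overlapped those of all 3 other libraries.

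**Figure D1:**
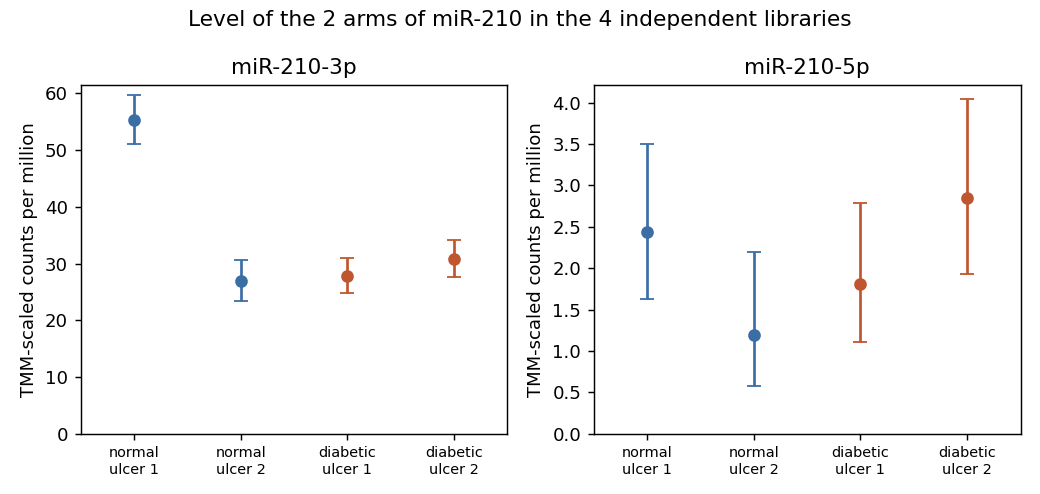
TMM-scaled CPM (vertical axes) of miR-210-3p (left) and miR-210-5p (right) in the 4 independent libraries, normal ulcer in blue and diabetic ulcer in orange. Points are single libraries and bars exact 95% Poisson intervals. For miR-210-3p normal ulcer 1 stands alone at 55.3 CPM while the other 3 lie between 26.8 and 30.7 CPM.

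In the ranking of all entries by mean level, miR-322-3p (35.5 CPM) and miR-1249-3p (35.2 CPM) came just before miR-210-3p (35.1 CPM), and miR-382-5p (33.3 CPM) and miR-1843b-5p (31.4 CPM) just after. Around miR-210-5p (2.07 CPM) stood miR-6538 and miR-93-3p (both 2.10 CPM), miR-503-3p (2.07 CPM) and miR-540-5p (2.06 CPM). The highest library exceeded the lowest 2.06-fold for miR-210-3p and 2.38-fold for miR-210-5p, where the median over tested miRNAs was 1.69-fold. A wider range was seen for 143 of 443 tested miRNAs in the case of miR-210-3p, and for 104 in the case of miR-210-5p. Tested miRNAs at 0 in a library, such as miR-499-5p, have no such ratio. They were left out of that median and not counted as wider. Within the normal group the ratio of library 1 to library 2 was 2.06 for miR-210-3p and 2.04 for miR-210-5p, against a median ratio of higher to lower of 1.30. A total of 68 of 443 miRNAs differed more than miR-210-3p between the 2 normal libraries. Between the diabetic libraries, in contrast, miR-210-3p differed 1.11-fold, and 357 of 443 miRNAs differed more.

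The comparison that the labels imply asks whether miR-210 differed between diabetic and normal ulcer skin. Neither arm passed the test, and the point estimates had opposite signs. The mean level of miR-210-3p was 41.1 ± 20.1 CPM (SD, n = 2) for normal and 29.2 ± 2.13 CPM (SD, n = 2) for diabetic ulcer. Its log2 difference, diabetic minus normal, was -0.49 ± 0.42 (SE) in edgeR's quasi-likelihood test, with a Benjamini-Hochberg adjusted p = 0.999. For miR-210-5p it was 1.81 ± 0.879 CPM (SD, n = 2) for normal and 2.33 ± 0.734 CPM (SD, n = 2) for diabetic ulcer. The log2 difference of miR-210-5p was 0.33 ± 0.53 (SE, edgeR, adjusted p = 0.999). Unadjusted p-values in that edgeR fit were 0.288 and 0.559. Of all 443 tested miRNAs 0% were called (0 miRNAs), 4 had an unadjusted p under 0.05, and the groups did not overlap for 21.0%. Neither arm of miR-210 was among the latter. On the same 4 libraries DESeq2 and limma-voom also called 0, with 3 and 4 miRNAs at an unadjusted p under 0.05. The direction for miR-210-3p rested on normal ulcer 1: without that library the log2 difference was 0.12 ± 0.50 (SE), and without normal ulcer 2 it was -0.81 ± 0.44 (SE). For miR-210-5p the log2 difference was 0.95 without normal ulcer 1 and 0.63 without diabetic ulcer 1, but 0.04 without normal ulcer 2 and 0.04 without diabetic ulcer 2. The design cannot separate fewer cells that hold miR-210 from less miR-210 per cell.

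**Figure D2:**
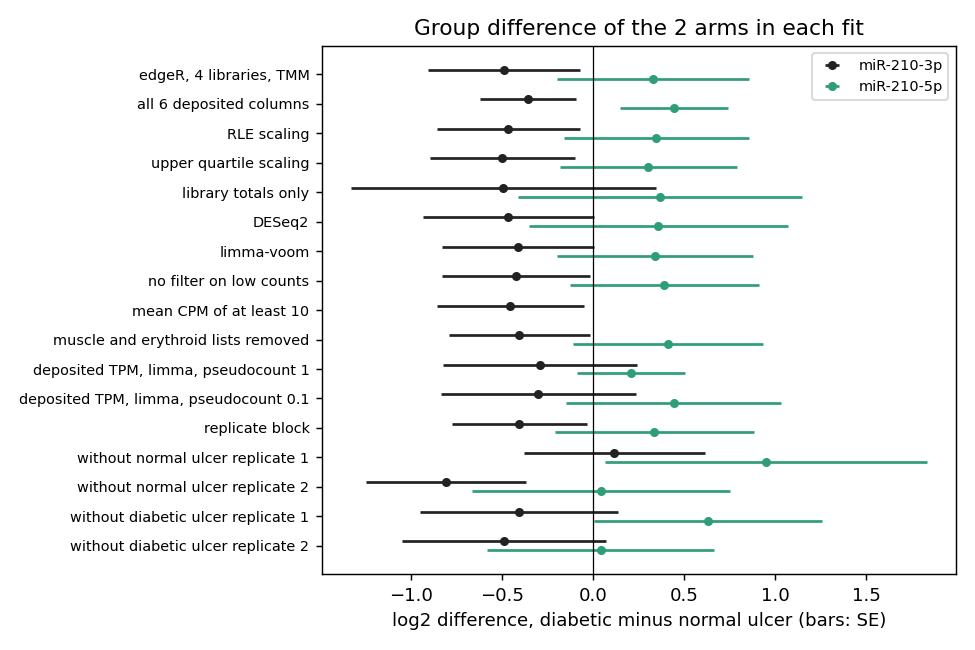
Log2 difference, diabetic minus normal ulcer (horizontal axis), of miR-210-3p (black) and miR-210-5p (green) in each fit named on the vertical axis, with bars of 1 SE. miR-210-3p lies to the left of 0 and miR-210-5p to the right in every fit shown, except that miR-210-3p is at 0.12 without normal ulcer replicate 1, and miR-210-5p was not tested at a mean of at least 10 CPM.

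The authors' deposited table sets its case, labelled D3M like the normal ulcer samples, over its control, labelled D3C like the diabetic ones. Its case mean, however, was a weighted sum of normal ulcer 1, normal ulcer 2 and diabetic ulcer 1 for 647 of 647 shared entries (within 1% or 0.5 of a count). Its control mean was a multiple of diabetic ulcer 2 alone for 646 of 647. The authors' deposited table gives miR-210-3p a log2 fold change of 0.29 (p-value 0.597, q-value 0.991) and miR-210-5p one of -0.60 (p-value 0.448, q-value 0.991). Its base means were 380 and 312 for miR-210-3p and 18.9 and 28.8 for miR-210-5p, case first. The fold changes of the deposited table thus set 3 libraries, 1 of them diabetic, against 1 diabetic library.

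The ratio of the arms needs no scaling between libraries, because both come from 1 precursor and are counted in the same library. It was nearly equal in the normal libraries and lower in both diabetic ones. miR-210-3p exceeded miR-210-5p 22.7-fold in normal ulcer 1 and 22.5-fold in normal ulcer 2, against 15.4-fold in diabetic ulcer 1 and 10.8-fold in diabetic ulcer 2. As a share of all miR-210 counts, the 5p arm took 4.22% in normal ulcer 1 (29 of 687, 95% Wilson interval 2.95 to 5.997) and 4.26% in normal ulcer 2 (10 of 235, 2.33 to 7.65). It took 6.12% in diabetic ulcer 1 (20 of 327, 3.99 to 9.26) and 8.47% in diabetic ulcer 2 (31 of 366, 6.03 to 11.8). Both diabetic shares lay above both normal shares. The intervals of normal ulcer 1 and diabetic ulcer 2 did not meet, and those of the other pairs of libraries overlapped.

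**Figure D3:**
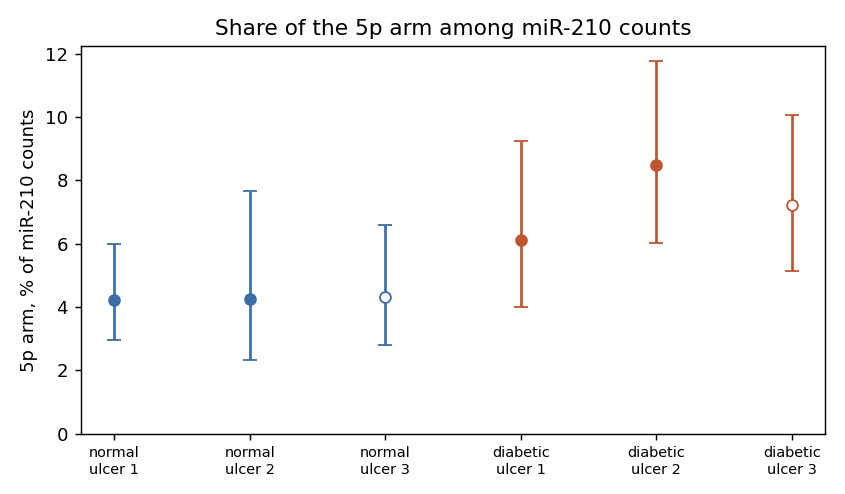
Share of the 5p arm among all miR-210 counts, in percent (vertical axis), by deposited column, with 95% Wilson intervals. Filled points are the independent libraries, at 4.22% and 4.26% in normal ulcer and 6.12% and 8.47% in diabetic ulcer. Open points are the columns numbered 3, which follow from the others.

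The mean share of the 5p arm was 4.24 ± 0.0241% (SD, n = 2) for normal and 7.29 ± 1.66% (SD, n = 2) for diabetic ulcer. On the log2 scale the ratio of 3p to 5p was 4.50 ± 0.0086 (SD, n = 2) for normal and 3.69 ± 0.36 (SD, n = 2) for diabetic ulcer, a difference of -0.81. Counting error alone gave that difference a standard error of 0.35. The exact two-sided permutation test over libraries gave p = 0.333, the smallest that 2 against 2 libraries allow, so the difference could not pass. The difference was -0.56 without diabetic ulcer 2 and -1.06 without diabetic ulcer 1, and -0.80 and -0.82 without normal ulcer 1 and 2.

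miR-210 was 1 of 153 miRNAs for which both arms were listed under 1 name and had at least 1 count in each of the 4 libraries. The groups did not overlap, with diabetic ulcer lower, for 18 of these 153 (11.8%), miR-210 among them. They did not overlap with diabetic ulcer higher for 33. The median difference in log2 arm ratio over all 153 was 0.05, and 7 of 153 had a more negative difference than miR-210. Arms with few counts varied most. Among the 105 miRNAs with at least 10 counts for both arms in every library, 3 differed by more than miR-210 in either direction, and these 3 were named after their values were seen. The difference was 1.42 for miR-335, 0.85 for miR-673 and -0.94 for miR-376b, and miR-210 itself only just reached that minimum.

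**Figure D4:**
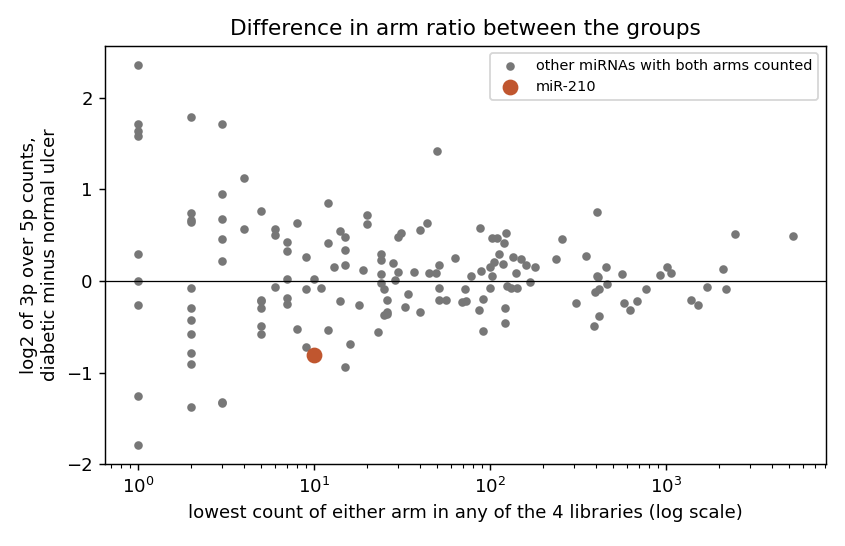
Difference between the groups in the log2 ratio of 3p to 5p counts, diabetic minus normal ulcer (vertical axis), against the lowest count of either arm in any of the 4 libraries (horizontal axis, log scale), with 1 point for each of 153 miRNAs. miR-210 (orange) lies at -0.81 and a lowest count of 10, in the range of counts where the points begin to spread.

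By mean arm ratio miR-210 ranked number 35 of 153 from the most 3p-dominant end. miR-27a, miR-141 and miR-193b came just before it, with mean log2 ratios of 4.45, 4.34 and 4.33 against 4.09 for miR-210. miR-200a, miR-33 and miR-5129 came just after, at 3.74, 3.60 and 3.54. The 3p arm was the more abundant for 77 of the 153. Of the 6 neighbours, miR-141 and miR-200a also had lower ratios in both diabetic libraries, by -0.72 and -0.31. miR-141 rested on a lowest count of 9, like miR-210 a small number, and miR-200a on 626.

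The pattern of miR-210-3p over the 4 libraries was set beside that of 271 other miRNAs with a mean of at least 10 CPM, after each was centred on its own mean log2 level. The root mean square difference had a median of 0.44 over these. For miR-210-5p it was also 0.44, but at 10 to 31 counts a library its counting error enters that value, so whether the arms moved together cannot be read from it. Closest to miR-210-3p was miR-497a-5p, of the miR-15/16 seed family, at 0.11. Its levels were 60.7 and 34.1 CPM for the normal libraries and 37.4 and 38.5 CPM for the diabetic ones. miR-10a-3p, from a Hox cluster, followed at 0.20, with 61.3 and 36.9 CPM for the normal libraries and 45.4 and 42.3 CPM for the diabetic ones. Next were the X-linked miR-362-3p (0.20) and miR-224-5p (0.23), and miR-708-5p (0.24). All 5 were highest in normal ulcer 1 and lowest in normal ulcer 2, as miR-210-3p was. With 4 libraries these distances only describe likeness.

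**Figure D5:**
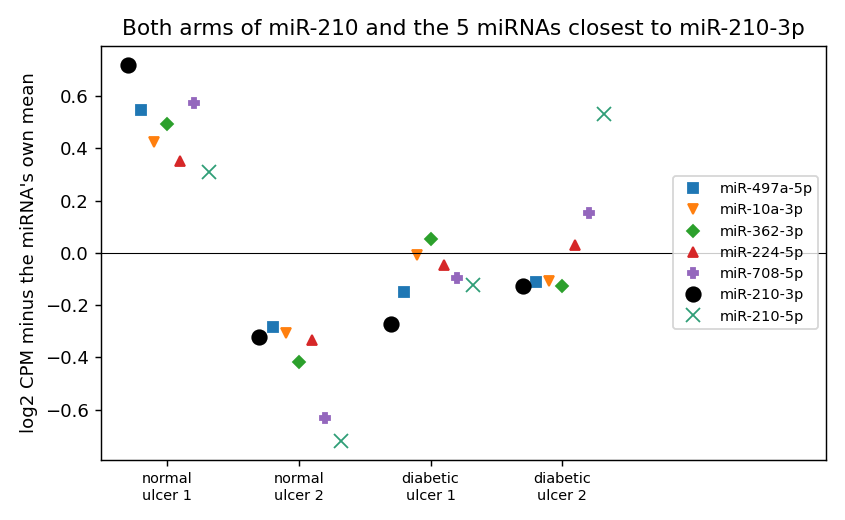
Log2 CPM minus the miRNA's own mean over 4 libraries (vertical axis) in each library, for miR-210-3p (black), miR-210-5p (crosses) and the 5 miRNAs closest to miR-210-3p. Points are shifted sideways so as not to hide each other. The 5 and miR-210-3p share a high value in normal ulcer 1, while miR-210-5p is highest in diabetic ulcer 2.

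None of the 5 shares a seed with either arm of miR-210, as their RefSeq sequences (GRCm38.p6, seed in capitals) show.
miR-497a-5p: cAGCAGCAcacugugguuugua
miR-10a-3p: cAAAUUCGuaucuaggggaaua
miR-362-3p: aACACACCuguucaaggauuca
miR-224-5p: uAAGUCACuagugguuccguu
miR-708-5p: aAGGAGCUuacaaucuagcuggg

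Other miRNAs reported as induced by hypoxia, mostly in human cell lines, gave no call either. All 15 listed ones were tested and edgeR called 0, with 0 at an unadjusted p under 0.05. In diabetic ulcer 11 were lower and 4 higher, with a median log2 difference of -0.10 against -0.02 over all tested miRNAs. With library totals in place of TMM 7 were lower and 8 higher. The split also turned without normal ulcer 1, with 6 lower and 9 higher (median 0.03), and without diabetic ulcer 2, with 7 lower and 8 higher (median 0.04). Most abundant was miR-26a-5p, with means of 90390 ± 4187 CPM for normal and 69473 ± 7438 CPM for diabetic ulcer (SD, n = 2). miR-27b-3p had 39310 ± 8610 and 34795 ± 7432 CPM, and the wound-associated miR-21a-5p 31463 ± 4188 and 29263 ± 1029 CPM (SD, n = 2), normal ulcer first. miR-23a-3p, miR-27a-3p, miR-24-3p, miR-103-3p and miR-26b-5p had mean levels of 3066 to 5469 CPM, with log2 differences from -0.41 for miR-26b-5p to 0.10 for miR-23a-3p. The groups did not overlap for 4 of the 15 (26.7%), near the 21.0% of all tested miRNAs. These were miR-26a-5p, miR-26b-5p and miR-155-5p, lower in diabetic ulcer, and miR-107-3p, higher. miR-155-5p and miR-107-3p were named after their values were seen. Levels of miR-107-3p were 110 and 65.5 CPM for the normal libraries and 132 and 118 CPM for the diabetic ones. The log2 difference of miR-107-3p in edgeR was 0.50 ± 0.32 (SE, adjusted p = 0.999). Levels of miR-155-5p were 165 and 129 CPM for the normal libraries and 101 and 93.5 CPM for the diabetic ones. Its log2 difference in edgeR was -0.60 ± 0.24 (SE, adjusted p = 0.999).

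Of 9 listed miRNAs reported to act on hypoxia-inducible factor or its regulators, edgeR called 0, with 2 higher and 7 lower in diabetic ulcer and a median log2 difference of -0.07. Of 7 vessel and angiogenesis miRNAs it called 0, with 4 higher and 3 lower and a median of 0.02. The endothelial miR-126a-3p, named after its values were seen, stood at 11531 and 15565 CPM in the normal and at 9762 and 17949 CPM in the diabetic libraries, lower in the library numbered 1 of each group.

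Depth and tissue makeup differed between the libraries. The 4 independent libraries held 8949104 to 13421603 counts, and a count of 0 would allow up to 0.224 to 0.335 CPM, below every value of either arm. Skin markers were present: the 7 keratinocyte miRNAs summed to 52548 and 22988 CPM for the normal and 42817 and 19319 CPM for the diabetic libraries, with none at 0. The 5 skeletal muscle miRNAs took 17.2% and 66.1% of counts in normal ulcer and 35.7% and 44.9% in diabetic ulcer, and 1 of them, miR-499-5p, was at 0 in normal ulcer 1. Normal ulcer 1, where miR-210-3p was highest, had the highest keratinocyte and fibroblast sums and the lowest muscle share. Normal ulcer 2, where miR-210-3p was lowest, had the highest muscle share. Over library totals miR-210-3p fell as the muscle share rose, at 73.5, 33.0, 31.1 and 16.8 CPM in normal ulcer 1, diabetic ulcer 1, diabetic ulcer 2 and normal ulcer 2. Muscle counts are part of those totals, and a larger muscle share by itself lowers other miRNAs on that scale. That order therefore cannot show a link between miR-210-3p and muscle. With TMM diabetic ulcer 2 came before diabetic ulcer 1, within counting error. Diabetic ulcer 2 had the lowest TMM-scaled keratinocyte and fibroblast sums, and diabetic ulcer 1 exceeded it in both. As shares of counts, normal ulcer 2 was lowest instead, at 1.44% for keratinocyte and 0.694% for fibroblast miRNAs. Diabetic ulcer 2 held 1.96% and 1.10% on that scale. The 2 endothelial miRNAs ranged from 11779 to 15826 CPM over the normal and from 9977 to 18279 CPM over the diabetic libraries. Summed leukocyte miRNAs (4) ranged from 706 to 863 and from 596 to 1370 CPM, erythroid miRNAs (4) from 600 to 1601 and from 933 to 1055 CPM, and fibroblast miRNAs (3) from 11114 to 17345 and from 10836 to 15593 CPM, in the same order. None of these lists had a member at 0. The part of cell makeup in the levels of miR-210 was not tested. With the muscle and erythroid miRNAs taken out, the log2 difference was -0.41 ± 0.39 (SE) for miR-210-3p and 0.41 ± 0.52 for miR-210-5p. Taking them out changes the scaling and does not adjust miR-210 for cell makeup. The median of all miRNAs was then 0.05, against -0.02 with them kept. Relative to the median, miR-210-3p lay at -0.46 and miR-210-5p at 0.36, against -0.47 and 0.34 with them kept.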

How the data were processed

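Small RNA was extracted from skin with a mirVana kit and sequenced on an Illumina platform, per the labels' protocols. Per the submitters' processing notes the builds are GRCm38 and mm10. For the aligner, the counter and the miRNA release, nothing was given in the sources used here. The deposited values are whole-number read counts per mature miRNA, without normalization. A second deposited table holds TPM and the authors' comparison, with fold change (ratio), log2 fold change, p-value and q-value columns, from DESeq2 without pairing per the file headers. Base means and sequence lengths in the deposited tables are other values. All columns were mapped by the code in the sample title, with 0 left over.

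The main test was edgeR's quasi-likelihood test (edgeR 4.0.16, R 4.3.3) on the counts of libraries 1 and 2 of each group, with TMM, filterByExpr at its defaults and Benjamini-Hochberg adjustment over 443 miRNAs, called under 0.05. The normal libraries 1 and 2 had TMM factors of 1.33 and 0.62, and the diabetic ones of 1.19 and 1.01. Standard errors are the log2 difference over the square root of F. The code was tested on simulated counts. The columns numbered 3 were left out: normal ulcer 3 was within 1 read of a weighted sum of normal ulcer 1 and 2 for 634 of 638 miRNAs, and the TPM of diabetic ulcer 3 within 0.1% of a linear formula in the TPM of diabetic ulcer 1 and 2 for 184 of 209. Where diabetic ulcer 1 and 2 differed and had under 60 counts, diabetic ulcer 3 equalled either for 251 of 272.

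Alternatives were DESeq2 1.42.0, limma-voom and limma on log2 of deposited TPM plus 1 or 0.1 (limma 3.58.1), 3 other scalings, other filters, all 6 columns, a replicate block and leaving out each library. Shares have 95% Wilson intervals and counts exact Poisson intervals. Hairpins were folded with RNAfold 2.7.2.

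The members, lists and tests were chosen with earlier results of these data known. Named miRNAs are the 2 arms, the 8 most abundant of the hypoxia list, 2 neighbours on each side in level, the 5 nearest in pattern, and 3 neighbours on each side in arm ratio, plus miR-499-5p and others said to be named after their values were seen.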

Additional observations from a re-analysis of the deposited data

How the results depend on the processing

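Neither arm of miR-210 was called in any alternative. miR-210-5p was higher in diabetic ulcer in all 15 alternatives that tested it (log2 difference 0.04 to 0.95); a mean of at least 10 CPM removed it. miR-210-3p was lower in 15 of 16, and leaving out 1 library moved its difference from -0.81 to 0.12, the latter without normal ulcer 1. Adjusted p over all alternatives ran from 0.602 to 1.00 for both arms. With library totals the median of all miRNAs shifted to 0.17, and relative to it miR-210-3p lay at -0.66 and miR-210-5p at 0.20. Without normal ulcer 2 that median was 0.10, and relative to it miR-210-5p lay at -0.06, so its sign turned. Without diabetic ulcer 2 miR-210-5p lay at 0.05 relative to the median. On all 6 columns edgeR called 0 of 438 (48 at an unadjusted p under 0.05), with -0.36 ± 0.26 and 0.44 ± 0.30 (SE) for the arms. The count of called miRNAs was 0 except for 1 with library totals (miR-499-5p) and 0 to 6 when 1 library was left out. The 6, without normal ulcer 1, were miR-499-5p, miR-208b-3p, miR-1b-5p, miR-196a-5p, miR-196b-5p and miR-378c; these names follow from their values, and the cause was not tested. Where a group kept 1 library, that library was assumed to vary like the others. The arm ratio stayed lower in diabetic ulcer in its 7 alternatives (-1.06 to -0.56). Because the groups did not overlap, leaving out a library could not change that sign. The remaining alternatives reuse the same libraries, so the 7 are no independent support. The median of the hypoxia list ran from -0.20 to 0.04, and 0 of its members were called in each alternative.

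The replicate numbers are shared between groups only as numbers. Deviations of same-numbered libraries correlated at 0.45 over 443 miRNAs. With the replicate block the differences were -0.41 ± 0.37 (SE) for miR-210-3p and 0.34 ± 0.55 for miR-210-5p, 0 miRNAs were called, and the list median was -0.10. The depth limits miR-210-5p, with 10 to 31 counts per library, more than miR-210-3p, with 225 to 658.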
